A study of Mus musculus with 8 samples.

Results

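The genes described here belong to the solute carrier families Slc1, Slc3, Slc6, Slc7, Slc36, Slc38 and Slc43, most of whose proteins carry amino acids across membranes. They were found by name: every gene of a probe named Slc1a, Slc3a, Slc6a, Slc7a, Slc36a, Slc38a or Slc43a on the array, with Slc7a1, Slc7a2 and Slc7a11 left out. This gave 60 genes with 80 probes, of 34787 genes and transcripts named on the array. Of these, 41 genes passed the filter on dim probes and were tested, among 26504 genes tested in all. A few members carry something else: Slc6a2, Slc6a3 and Slc6a4 monoamines, Slc6a8 creatine, Slc43a3 purine nucleobases, and Slc7a6os, named for its place opposite Slc7a6, is no transporter.

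RNA was measured on 8 one-colour arrays, 2 for each of 4 groups of cells from mice on a B6.Cg background that all carry the transgene Tg(CAG-DsRed*MST)1Nagy, which makes the red fluorescent protein DsRed from a promoter active in most cells. Bone marrow macrophages, grown for 7 days with the growth factor M-CSF, received LPS, a bacterial cell wall product, or the cytokine IL-4 for 24 hours, or were kept in control medium. Colony cells came from bone marrow grown over an endothelial monolayer for 7 days, in HSC media, meant for blood stem cells, so substrate, medium and growth factor differ together between them and the macrophages. The labels do not say whether replicates are separate mice or cultures, nor whether endothelial cells were removed, so p-values measure only the spread between these samples, which may be technical.

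Amino acid transporters work in a few modes. Exchangers such as the LAT proteins of the Slc7 family swap one amino acid for another and reach the cell surface bound to a heavy chain, CD98hc, the product of Slc3a2. Carriers of the Slc1, Slc6 and Slc38 families use the sodium gradient to pull amino acids in, Slc36 proteins use protons and sit partly in lysosomes, and Slc43 proteins let neutral amino acids pass down their gradient. When amino acids run short, the transcription factor ATF4 raises many of these genes together with enzymes of serine and asparagine synthesis and aminoacyl-tRNA synthetases. In macrophages, which digest proteins in their lysosomes, transport out of lysosomes and across the surface feeds the mTORC1 growth pathway.

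Levels are scaled signals in intensity units: each array was scaled so that its 75th percentile equalled 637, the geometric mean over the 8 arrays. They can be compared between groups for 1 gene, not between genes. Changes are on the log2 scale, each with its SE, and were fitted with limma on all 8 arrays (n = 2 arrays per group). A gene is called where its p, adjusted after Benjamini and Hochberg across the whole set tested, was under 0.05. Where a gene was not above background on either array of a group, its fold is a lower bound. The share of spots above background ran between 62.4% and 72.2% and was highest on LPS replicate 2, which also had 105 uneven spots against 0 to 5 elsewhere. No spot was saturated.

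Marker genes went in part against the name of the colony sample as blood cells. All 8 pan-leukocyte markers were above background in every group, but their summed signal was 38286 and 38795 in colony cells, against 326137 and 328194 in control macrophages. The 8 macrophage markers summed to 77845 and 77411 in colony cells, against 990340 and 1003227 in control macrophages. The 11 fibroblast and mesothelial markers, among them Dcn, Msln and Wt1, summed to 385238 and 371903 in colony cells, against 341 and 428 in control macrophages. Col1a2 alone among them went the other way (-0.90). Of 10 endothelial markers 7 were above background on both colony arrays and 6 on both control arrays. Tie1 and Emcn were above it in no group, and Cdh5 in the macrophage groups alone. Esam had 4106 and 4809 in colony cells, against 7.04 and 2.07 in control macrophages. Tek had 44.7 and 35.3, against 7.39 and 6.66, and neither gene was above background in control. Cdh5, Kdr, Cldn5, Eng and Vwf were lower in colony cells than in control. The 10 summed to 13379 and 13462 in colony cells, against 22855 and 26033 in control macrophages. Kdr (12151 and 13772) and Vwf (8937 and 10338) were the brightest of them in control. In bulk RNA, fewer cells of a type and less RNA per cell cannot be told apart, and the part of these other cells in the colony results below was not tested. Mast cell markers, of a blood lineage, were all 7 above background on both colony arrays and summed to 4252 and 4236 in colony cells, against 546 and 445 in control macrophages, with Cpa3 at 2138 and 2182 in colony cells and not above background in control. In LPS macrophages they summed to 5435 and 5848, almost entirely from Hdc. The 7 neutrophil markers, also of a blood lineage, were above background on both arrays of every group. They summed to 28445 and 29070 in colony cells, against 36243 and 30152 in control macrophages.

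LPS changed most of the transporters that could be tested. Against control, 31 of 41 members (75.6%) were called, 21 higher and 10 lower, where 54.7% of all genes were called, 28.9% higher and 25.8% lower. Of the called members 67.7% were higher (52.9% of all called genes), against 57.1% with normexp background correction (42.5%), 59.3% with median centring (39.9%) and 56.5% with the values of the authors' deposited table (38.5%), so the share fell for all genes too. The median member change was 0.38, against 0.07 over all genes. Slc6a12 and Slc6a13, carriers of GABA and betaine, were above 50-fold higher, and the neutral carrier Slc1a4, the glycine carrier Slc6a9 and the exchangers Slc7a5, Slc7a7 and Slc7a8 rose too. The cationic relative Slc7a4 had the largest measured fall. Of the 31, Slc1a2, Slc6a7, Slc6a19, Slc7a13, Slc36a2 and Slc36a3 were not well above background in LPS or in control. The rises of Slc1a2, Slc6a7 and Slc6a19 are tied to the filter, which they passed through LPS alone. Of the 32 members measured in both groups, 17 were called higher and 8 lower.

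IL-4 called 16 of 41 members (39%), 11 higher and 5 lower, where 19% of all genes were called, 9.87% higher and 9.18% lower. Leaving out IL-4 replicate 1 left 9 calls, and leaving out control replicate 2 left 10. The median member change was 0.08, against -0.01 over all genes. The proton-coupled glycine and proline carrier Slc36a2, Slc6a9 and Slc7a5 had the highest changes, and the exchanger Slc7a7 the lowest measured in both groups. The Slc7a5 change rests on 1 of its 2 probes. Of the 16, Slc43a1 was not well above background in either group, and Slc6a18 and Slc7a13 were not in 1 of them. None of the 8 tested Slc38 genes was called, with changes of -0.31 to 0.09.

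In colony cells 29 of 41 members (70.7%) were called against control, 13 higher and 16 lower, close to the 71.4% of all genes called (24.7% higher, 46.7% lower). Of the called members 44.8% were higher (34.6% of all called genes), against 31.4% with normexp background correction (26.7%), 44.8% with median centring (29.7%) and 51.7% with quantile normalization (39%). The median member change was -0.10, against -0.35 over all genes. Changes were wide, between -5.53 and 8.97: Slc1a6, Slc6a9, Slc7a5, Slc43a3, Slc7a3 and Slc43a1 rose by over 30-fold, and Slc43a2 fell 46.1-fold. Of the called genes, Slc6a18 was not well above background in either group, and Slc7a13, Slc36a3 and Slc43a1 were not in 1 of them.

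The direct comparisons gave 28 called members for IL-4 against LPS (68.3%; 10 higher, 18 lower), where 52.6% of all genes were called (25.8% higher, 26.8% lower). For colony cells against IL-4 there were 31 (75.6%; 12 higher, 19 lower), where 71.7% of all genes were called (24.3% higher, 47.4% lower). For colony cells against LPS there were 35 (85.4%; 11 higher, 24 lower), where 76.5% of all genes were called (26.8% higher, 49.7% lower). Median member changes were -0.26, -0.34 and -0.61 in these comparisons, against -0.06, -0.37 and -0.42 over all genes. By group means, LPS macrophages had the highest level of 21 of the 41 members and colony cells the lowest level of 18. The LPS count includes Slc1a2, Slc6a7, Slc6a19 and Slc7a15, which passed the filter through LPS alone. The colony count includes Slc1a2, Slc6a18 and Slc7a13, which were dim there, so their order is not known. The share over all genes was not counted, so neither count is a result about the members. The arrays of the compared groups did not overlap for 38 of 41 members with LPS against control (92.7%, where 75.2% of all genes did not), 32 with IL-4 (78%, where 61.5% did not) and 37 in colony cells (90.2%, where 87.6% did not). The counts were 37 for IL-4 against LPS (76.7% of all genes), 36 for colony cells against IL-4 (89.6%) and 38 for colony cells against LPS (89%). Without LPS replicate 2, the array with the most uneven spots, 28 members were called for LPS against control, 24 for IL-4 against LPS and 32 for colony cells against LPS.

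**Figure D1:**
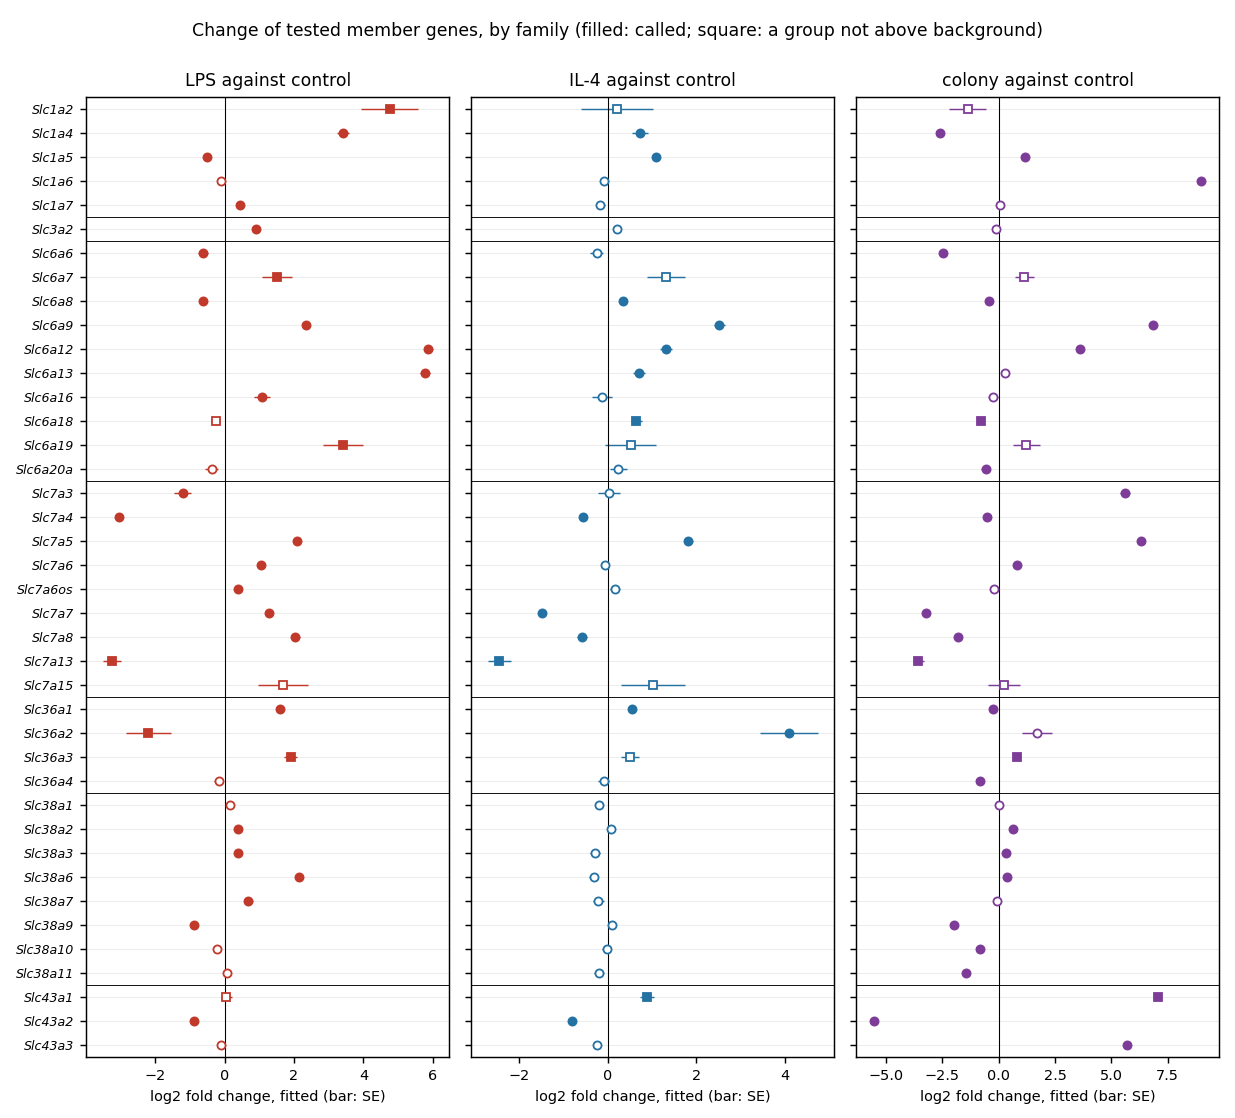
Fitted log2 fold change against control (horizontal axes, which differ in range; bars are SE, n = 2 arrays per group) of the tested genes described here, grouped by family, in LPS macrophages, IL-4 macrophages and colony cells. Filled symbols are called genes and squares are genes not well above background in at least 1 of the compared groups; Slc6a12 and Slc6a13 stand farthest right with LPS, Slc36a2 with IL-4 and Slc1a6 in colony cells.

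The exchangers that pair with CD98hc rose together with LPS. With IL-4, Slc7a7 and Slc7a8 fell, Slc7a6 was not called, and Slc7a5 rose at 1 of its 2 probes. Slc3a2 itself, the shared heavy chain, had 62778 and 59359 in LPS macrophages, 37502 and 38625 in IL-4 macrophages, 31328 and 28815 in colony cells, and 31928 and 33612 in control macrophages. LPS lay above every other group, by 0.90 ± 0.08 against control (1.86-fold, adjusted p = 0.00029). IL-4 (0.22 ± 0.08, adjusted p = 0.12) and colony cells (-0.12 ± 0.08, adjusted p = 0.2) missed the threshold against control.

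Slc7a5 codes for LAT1, which brings in leucine and other large neutral amino acids. At its representing probe (mm9 chr8:124405136-124405195), it had 182 and 189 in LPS macrophages, 140.4 and 170.0 in IL-4 macrophages, 3636 and 3377 in colony cells, and 44.2 and 43.4 in control macrophages. All 3 groups were clear of control. The rise was 4.24-fold with LPS (2.08 ± 0.11, adjusted p = 4.3e-05), 3.53-fold with IL-4 (1.82 ± 0.11, adjusted p = 0.00043) and 80-fold in colony cells (6.32 ± 0.11, adjusted p = 6.3e-07). IL-4 and LPS were not called apart (IL-4 against LPS, -0.27). A second probe (mm9 chr8:124430996-124431055), 25860 bases away, moved far less. It had 319 and 298 in LPS macrophages, 189 and 196 in IL-4 macrophages, 253 and 256 in colony cells, and 191 and 159 in control macrophages. Its changes against control were 0.82, 0.14 and 0.54, so the size of the Slc7a5 rise, most of all in colony cells, rests on 1 of 2 probes. With IL-4 this second probe overlapped control, so there the rise itself rests on 1 probe.

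Slc7a8 codes for LAT2, another neutral exchanger. It had 16494 and 19077 in LPS macrophages, 2648 and 3134 in IL-4 macrophages, 1213 and 1242 in colony cells, and 4445 and 4159 in control macrophages. The groups did not overlap, LPS above control and the other groups below it. It rose 4.13-fold with LPS (2.04 ± 0.12, adjusted p = 6.2e-05) and fell with IL-4 (-0.58 ± 0.12, adjusted p = 0.024) and in colony cells (-1.81 ± 0.12, adjusted p = 5e-05). The IL-4 call was lost without control replicate 1, control replicate 2, IL-4 replicate 1 or either colony array (adjusted p = 0.093, 0.073, 0.11 and 0.056).

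Slc7a7 codes for y+LAT1, which exports arginine and lysine in exchange for neutral amino acids and is mutated in human lysinuric protein intolerance. It had 18688 and 20934 in LPS macrophages, 2910.2 and 2938 in IL-4 macrophages, 855 and 889 in colony cells, and 7979 and 8338 in control macrophages. LPS and IL-4 moved it in opposite directions. It rose 2.42-fold with LPS (1.28 ± 0.08, adjusted p = 8.9e-05) and fell 2.79-fold with IL-4 (-1.48 ± 0.08, adjusted p = 0.00034) and 9.36-fold in colony cells (-3.23 ± 0.08, adjusted p = 1.6e-06). IL-4 against LPS, the difference was 6.76-fold (-2.76 ± 0.08, adjusted p = 5.7e-06).

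Its close relative Slc7a6, y+LAT2, had 474 and 495 in LPS macrophages, 223 and 220.3 in IL-4 macrophages, 410.2 and 408 in colony cells, and 234 and 233 in control macrophages. It rose with LPS (1.05 ± 0.06, adjusted p = 6.9e-05) and in colony cells (0.81 ± 0.06, adjusted p = 9.8e-05), and IL-4 left it at -0.07 ± 0.06 (adjusted p = 0.49). Where Slc7a7 was lowest, in colony cells, Slc7a6 was above control. Slc7a6os, on the opposite strand beside Slc7a6, changed by 0.38 ± 0.11 with LPS (adjusted p = 0.029) and was not called with IL-4 or in colony cells.

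The Slc7 genes of the cationic branch had other patterns. Slc7a3, the arginine and lysine carrier CAT3, had 13.0 and 15.0 in LPS macrophages, 40.5 and 26.6 in IL-4 macrophages, 1534 and 1579 in colony cells, and 37.8 and 27.4 in control macrophages. It was 48.4-fold higher in colony cells (5.60 ± 0.24, adjusted p = 1.1e-05), 2.3-fold lower with LPS (-1.20 ± 0.24, adjusted p = 0.0086), and overlapped control with IL-4. Slc7a4, a relative of the cationic carriers, had 79.5 and 84.0 in LPS macrophages, 440.3 and 473 in IL-4 macrophages, 439.6 and 478 in colony cells, and 661 and 671 in control macrophages. It fell 8.15-fold with LPS (-3.03 ± 0.08, adjusted p = 4.6e-06), and by similar amounts with IL-4 (-0.55 ± 0.08, adjusted p = 0.0084) and in colony cells (-0.54 ± 0.08, adjusted p = 0.0016). The IL-4 call was lost without IL-4 replicate 1 (adjusted p = 0.064).

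Slc7a13, a carrier of aspartate and glutamate known from kidney, was above background in control macrophages alone. Its level was 17.8 and 22.4 there, and against it the gene was at least 2.21-fold lower with LPS, at least 2.14-fold lower with IL-4 and at least 2.5-fold lower in colony cells (adjusted p = 0.00023, 0.003 and 8.2e-05). It passed the filter through control alone, so these falls are tied to that filter. Slc7a15 was measured on both LPS arrays (13.0 and 13.2), on 1 of 2 IL-4 arrays, and on no colony or control array, and was called in no comparison with control.

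**Figure D2:**
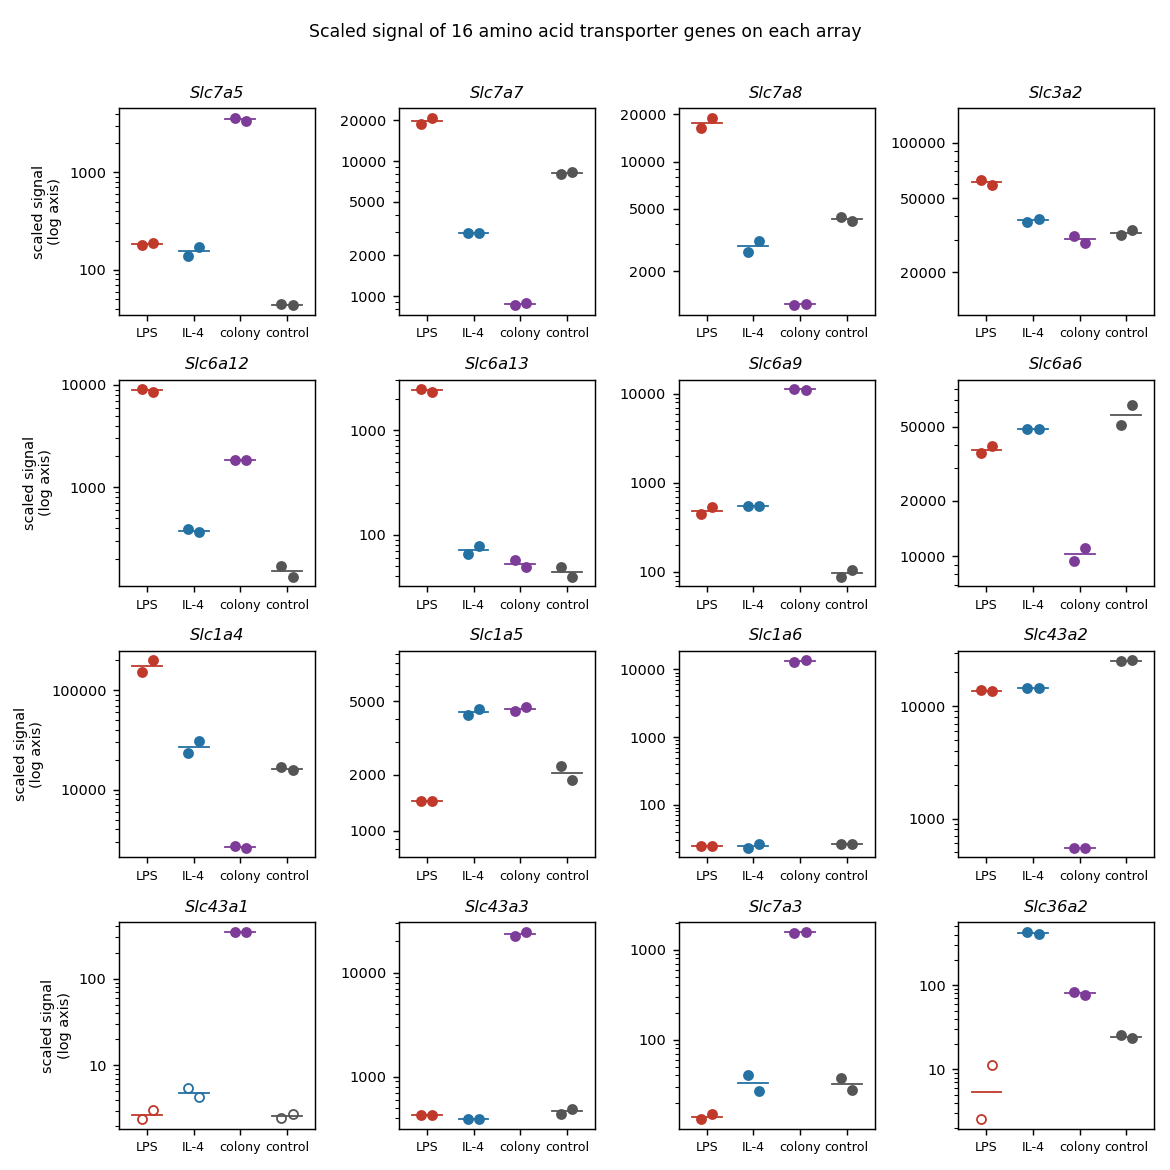
Scaled signal (vertical log axes, intensity units, own range per panel) on each array for 16 member genes; each point is 1 array, lines are geometric means of n = 2, and open points mark groups not well above background on both arrays. Slc7a7 and Slc7a8 are high with LPS and low in colony cells, Slc6a12 and Slc6a13 peak with LPS, and Slc1a6, Slc43a1, Slc43a3 and Slc7a3 are highest in colony cells.

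The Slc6 carriers take up small molecules with sodium and chloride. LPS called 9 of their 11 tested genes, 6 higher and 3 lower, where 28.9% of all genes were higher and 25.8% lower. The 6 include Slc6a7 and Slc6a19, which passed the filter through LPS alone. Slc6a12, the betaine and GABA carrier BGT1 (probe at mm9 chr6:121315541-121315600), had 9100.3 and 8595 in LPS macrophages, 388 and 362 in IL-4 macrophages, 1866 and 1848 in colony cells, and 171 and 134 in control macrophages. All 3 groups lay above control and LPS above all others. The rise was 58.5-fold with LPS (5.87 ± 0.13, adjusted p = 3.1e-06), 2.48-fold with IL-4 (1.31 ± 0.13, adjusted p = 0.0023) and 12.3-fold in colony cells (3.62 ± 0.13, adjusted p = 5.1e-06). Slc6a13, the GABA and taurine carrier GAT2 (probe at mm9 chr6:121287597-121287656), had 2479.6 and 2349.8 in LPS macrophages, 66.0 and 77.5 in IL-4 macrophages, 57.3 and 49.2 in colony cells, and 48.7 and 39.8 in control macrophages. LPS lay far above the other groups, 54.9-fold above control (5.78 ± 0.14, adjusted p = 4.1e-06), while colony cells gave 0.27 ± 0.14 (adjusted p = 0.14). Its IL-4 call (0.70 ± 0.14, adjusted p = 0.025) was lost without control replicate 2, IL-4 replicate 1 or IL-4 replicate 2 (adjusted p = 0.097, 0.065 and 0.14).

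Slc6a12 and Slc6a13 are neighbours on chromosome 6. In RefSeq promoters (assembly GRCm38.p6, 250 bases before to 50 after each start), which 43 of the 60 members had, 63 promoters were searched on both strands for the NF-kB site, the sequence bound by the NF-kB factors that LPS activates. Both neighbours hold it, as does Slc7a7, which also rose with LPS. The 30 bases around each match follow, on the gene's strand, with the matching letters in capitals. They lie at chr6:121342441-121342450, chr6:121303562-121303571 and chr14:54417817-54417826 (GRCm38.p6), and begin 133, 77 and 124 bases before the start of the gene.
Slc6a12: gacttctctaGGAAAATCCCaaggagaagg
Slc6a13: tccatatttaGGGAATTTCCacacccctgt
Slc7a7: cgctgcccctGGGACTTCCCggcctgggtt
The site was in 9 of the 63 member promoters (14.3%), against 8.46% of 32851 promoters. Of 6 tested members that hold it, 3 rose with LPS, 1 fell (Slc43a2) and 2 were not called (Slc1a6 and Slc36a4). The 3 shown are those that rose. This is close to the share of all 41 tested members, 51.2% higher and 24.4% lower with LPS. Of all genes, 28.9% were higher and 25.8% lower. A match is a run of letters, not shown binding.

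Slc6a9, the glycine carrier GlyT1, had 449.9 and 532 in LPS macrophages, 547 and 556 in IL-4 macrophages, 11286 and 11053 in colony cells, and 88.6 and 105 in control macrophages. Every group lay above control. It rose 5.08-fold with LPS (2.35 ± 0.12, adjusted p = 3.9e-05), 5.72-fold with IL-4 (2.52 ± 0.12, adjusted p = 0.00022) and 116-fold in colony cells (6.86 ± 0.12, adjusted p = 6.6e-07). A second, overlapping probe gave 2.33, 2.63 and 6.95. IL-4 against LPS the gene was not called, at 0.17.

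The taurine carrier Slc6a6 had 35931 and 39254 in LPS macrophages, 48535 and 48973 in IL-4 macrophages, 9489 and 11141 in colony cells, and 51160.0 and 65521 in control macrophages. It fell 5.63-fold in colony cells (-2.49 ± 0.15, adjusted p = 3.3e-05) and by less with LPS (-0.62 ± 0.15, adjusted p = 0.014), a call lost without LPS replicate 1 (adjusted p = 0.055).

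The creatine carrier Slc6a8 was opposite between the stimuli. It had 9264 and 9447 in LPS macrophages, 17828 and 18583 in IL-4 macrophages, 10537 and 10922 in colony cells, and 14790.1 and 14043 in control macrophages. It fell with LPS (-0.62 ± 0.07, adjusted p = 0.00073) and in colony cells (-0.43 ± 0.07, adjusted p = 0.0021) and rose with IL-4 (0.34 ± 0.07, adjusted p = 0.023). IL-4 against LPS, it was 1.95-fold higher (0.96 ± 0.07, adjusted p = 0.00014).

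Some Slc6 members were dim in control. Slc6a19 and Slc6a7 passed the filter through LPS alone and Slc6a18 through IL-4 alone, so their rises there are tied to that filter. Slc6a19, the neutral amino acid carrier of gut and kidney, had 24.7 and 21.4 in LPS macrophages and was not well above background in control, at least 2.36-fold higher with LPS (adjusted p = 0.0042); with another background correction its change was 0.15 (adjusted p = 0.22). The proline carrier Slc6a7 was at least 1.42-fold higher with LPS (adjusted p = 0.03) and Slc6a18 at least 1.18-fold higher with IL-4 (adjusted p = 0.021). Of the members measured in every group, Slc6a16 had 164 and 262 in LPS macrophages against 96.5 and 99.1 in control, a rise of 1.08 ± 0.22 (adjusted p = 0.0084). The imino acid carrier Slc6a20a was lower in colony cells (114 and 143) than in control (215 and 169), by -0.58 ± 0.19 (adjusted p = 0.038).

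The Slc1 family holds neutral amino acid carriers and glutamate carriers. Slc1a4, the alanine, serine and cysteine carrier ASCT1, had 150087 and 198050.3 in LPS macrophages, 23325 and 31026 in IL-4 macrophages, 2707 and 2609 in colony cells, and 16739 and 15763 in control macrophages. LPS lay above and colony cells below all others. It rose 10.6-fold with LPS (3.41 ± 0.18, adjusted p = 5.1e-05) and fell 6.11-fold in colony cells (-2.61 ± 0.18, adjusted p = 7.2e-05), so that colony cells against LPS differed 64.9-fold (-6.02 ± 0.18, adjusted p = 2.4e-06). The IL-4 change (0.73 ± 0.18, adjusted p = 0.047) was lost on leaving out either control, IL-4 or colony array, with an adjusted p of up to 0.2.

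Slc1a5, the glutamine carrier ASCT2, had 1447 and 1441 in LPS macrophages, 4213 and 4518 in IL-4 macrophages, 4449 and 4644 in colony cells, and 2248 and 1875 in control macrophages. LPS lay below control and the other groups above it. It fell with LPS (-0.51 ± 0.10, adjusted p = 0.0089) and rose with IL-4 (1.09 ± 0.10, adjusted p = 0.0022) and in colony cells (1.15 ± 0.10, adjusted p = 2e-04). IL-4 against LPS, it was 3.02-fold higher (1.60 ± 0.10, adjusted p = 0.00011), the reverse of Slc1a4 (-2.68 ± 0.18, adjusted p = 0.00013). Its second probe gave -0.43, 1.08 and 1.18 against control.

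Of the glutamate carriers, Slc1a6 (EAAT4, known from Purkinje cells of the cerebellum) was the most changed member in colony cells. It had 24.4 and 24.4 in LPS macrophages, 23.0 and 26.6 in IL-4 macrophages, 12925 and 13592 in colony cells, and 26.5 and 26.2 in control macrophages. The macrophage groups overlapped or nearly so, and colony cells were 503-fold above control (8.97 ± 0.09, adjusted p = 4.5e-07; probe at mm9 chr10:78277447-78277506). Slc1a2, the main glutamate carrier of astrocytes, had 126 and 139.8 in LPS macrophages and 13.8 and 2.35 in IL-4 macrophages, and was not well above background in colony cells or control. It was at least 13.6-fold higher with LPS (adjusted p = 0.0046). The gene passed the filter through LPS alone, so this rise is tied to that filter. Its other probes were dim, with no array or 1 LPS array above background. Slc1a7 had 76.8 and 78.0 in LPS macrophages against 60.6 and 51.9 in control, a rise of 0.46 ± 0.10 (adjusted p = 0.011).

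The Slc43 genes were all called in colony cells against control, where 71.4% of all genes were called, and had opposite directions there. Slc43a2, LAT4, which carries branched-chain amino acids, had 13925 and 13647 in LPS macrophages, 14389 and 14514 in IL-4 macrophages, 547 and 551 in colony cells, and 25101 and 25543 in control macrophages. It fell in every group: 1.84-fold with LPS (-0.88 ± 0.06, adjusted p = 0.00012), 1.75-fold with IL-4 (-0.81 ± 0.06, adjusted p = 0.00094) and 46.1-fold in colony cells (-5.53 ± 0.06, adjusted p = 4.5e-07). Slc43a1, LAT3, with similar cargo, was well above background in colony cells alone, at 347 and 341. This was at least 35.3-fold above control (adjusted p = 1.2e-06), in a gene that passed the filter through colony cells alone. Slc43a3, the nucleobase carrier, had 429.9 and 430.0 in LPS macrophages, 388 and 390.4 in IL-4 macrophages, 22331 and 24710.4 in colony cells, and 442 and 484 in control macrophages. It was 50.8-fold higher in colony cells (5.67 ± 0.08, adjusted p = 5e-07) and not called with LPS (-0.11) or IL-4 (-0.25).

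The genes that set colony cells apart did so from each macrophage group. Colony cells against LPS, Slc1a6 was 543-fold higher (9.08 ± 0.09, adjusted p = 2.6e-07) and Slc7a3 111-fold (6.80 ± 0.24, adjusted p = 4.1e-06). Colony cells against IL-4, these were 536-fold (9.07 ± 0.09, adjusted p = 4.6e-07) and 47.4-fold (5.57 ± 0.24, adjusted p = 1.1e-05). Beside these values, the fibroblast and mesothelial markers summed to 385238 and 371903 in colony cells, 802 and 909 in LPS macrophages, and 222 and 232 in IL-4 macrophages.

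Slc1a6 and Slc43a1 both hold the E-box CACGTG, which MYC and TFEB-related factors bind, near the start of the gene. The 30 bases around it, on the gene's strand with the E-box in capitals, lie at chr10:78780464-78780469 and chr2:84840259-84840264 (GRCm38.p6, RefSeq).
Slc1a6: gccccccgcaccCACGTGagctcaaggcca
Slc43a1: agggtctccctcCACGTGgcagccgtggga
The E-box was in 9 of the 63 member promoters (14.3%), against 7.15% of all promoters. Of 6 tested members that hold it, 2 were higher and 1 lower in colony cells than in control, while 4 were higher and 0 lower with LPS and 2 higher and 0 lower with IL-4. The 2 shown are those higher in colony cells, and Slc43a1 passed the filter through colony cells alone. The 2 higher with IL-4 were Slc43a1, dim in both IL-4 and control, and Slc36a1. Slc36a1 rose with LPS and IL-4 at 1 of its 2 probes. Of all tested members, 31.7% were higher and 39% lower in colony cells, 51.2% and 24.4% with LPS, and 26.8% and 12.2% with IL-4. Of all genes, 24.7% were higher in colony cells, 28.9% with LPS and 9.87% with IL-4. The letters TGATGNAA, the core of the amino acid response element bound by ATF4, were in 4.76% of member promoters and 3.97% of all, and the STAT6 site of the IL-4 pathway, searched as TTC and GAA with 4 free bases between, in 4.76% and 6.95%.

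With IL-4, where 9.87% of all genes were higher, 2 of the 4 Slc36 genes, the proton-coupled carriers, were called higher: Slc36a2, and Slc36a1 at 1 of its 2 probes. Slc36a2 (PAT2), which carries glycine and proline, had 2.55 and 11.4 in LPS macrophages, both not well above background, 431 and 407 in IL-4 macrophages, 83.2 and 77.3 in colony cells, and 25.5 and 23.7 in control macrophages. It was 17-fold higher with IL-4 than in control (4.09 ± 0.65, adjusted p = 0.011) and at least 42.3-fold higher with IL-4 than with LPS (adjusted p = 0.00065). The arrays of the dim LPS group lay farthest apart, and the IL-4 call missed the threshold without any 1 control or IL-4 array (adjusted p = 0.052, 0.061, 0.067 and 0.067). LPS against control was at least 2.49-fold lower (adjusted p = 0.033), a call lost without any 1 control, IL-4 or colony array (adjusted p of up to 0.12). Colony cells against control gave 1.70 ± 0.65 (adjusted p = 0.059).

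Its neighbours on chromosome 11 had other patterns. Slc36a1 (PAT1), which moves amino acids out of lysosomes, had 2999.5 and 3046 in LPS macrophages, 1400.1 and 1503 in IL-4 macrophages, 826 and 826 in colony cells, and 990.4 and 1006 in control macrophages. It rose 3.03-fold with LPS (1.60 ± 0.07, adjusted p = 2.1e-05) and 1.45-fold with IL-4 (0.54 ± 0.07, adjusted p = 0.0049). A second probe of Slc36a1 had 117 and 167 in LPS macrophages and 133 and 167 in control, a change of -0.09, and gave -0.10 with IL-4. In colony cells the gene changed by -0.27 ± 0.07 (adjusted p = 0.012) at the first probe and -1.18 at the second. At its representing probe, Slc36a3 was at least 3.14-fold higher with LPS (adjusted p = 0.00065) and at least 1.46-fold higher in colony cells. Its second probe rose less with LPS (0.88) and was lower in colony cells (-1.67). Slc36a4, a proline and tryptophan carrier, was lower in colony cells (545 and 513) than in control (839 and 1034), by -0.82 ± 0.13 (adjusted p = 0.0025), and was not called with LPS or IL-4.

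Among the Slc38 carriers of glutamine and other small neutral amino acids, Slc38a6 had the highest LPS change. It had 5049 and 5252 in LPS macrophages, 1006 and 872 in IL-4 macrophages, 1415 and 1552 in colony cells, and 1115 and 1217 in control macrophages. It rose 4.42-fold with LPS (2.14 ± 0.10, adjusted p = 3.3e-05), and its second probe by 0.83. In colony cells the probes disagreed in sign (0.35 and -1.86). Slc38a7, a lysosomal glutamine exporter, had 2815 and 2296 in LPS macrophages against 1488 and 1667 in control, a rise of 0.69 ± 0.13 (adjusted p = 0.0059). Slc38a2 (SNAT2), which cells raise when amino acids run short, had 8767 and 8634 in LPS macrophages, 6738 and 7405 in IL-4 macrophages, 10283 and 10516 in colony cells, and 6303 and 7061 in control macrophages. It rose with LPS (0.38 ± 0.09, adjusted p = 0.013) and in colony cells (0.64 ± 0.09, adjusted p = 0.0011). Slc38a1 was not called against control in any group at its representing probe (0.15, -0.19 and 0.03). Its other probes gave 0.76 and -0.06 with LPS, 0.13 and 0.06 with IL-4, and 0.48 and -0.03 in colony cells.

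Slc38a9, a lysosomal arginine sensor that signals to mTORC1, had 1367 and 1371 in LPS macrophages, 2731 and 2624 in IL-4 macrophages, 606 and 663 in colony cells, and 2518 and 2496 in control macrophages. It fell 1.83-fold with LPS (-0.87 ± 0.07, adjusted p = 0.00026) and 3.95-fold in colony cells (-1.98 ± 0.07, adjusted p = 5.6e-06). With LPS 1 of its other probes gave 0.28, so the LPS direction depended on the probe. In colony cells its 3 probes lay between -2.67 and -1.48, all lower. Slc38a10 (-0.83 ± 0.10, adjusted p = 0.00081) and Slc38a11 (-1.47 ± 0.11, adjusted p = 9.9e-05) fell in colony cells and were not called with LPS or IL-4. The glutamine carrier Slc38a3 rose a little with LPS (0.39 ± 0.11, adjusted p = 0.025) and in colony cells (0.32 ± 0.11, adjusted p = 0.035).

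**Figure D3:**
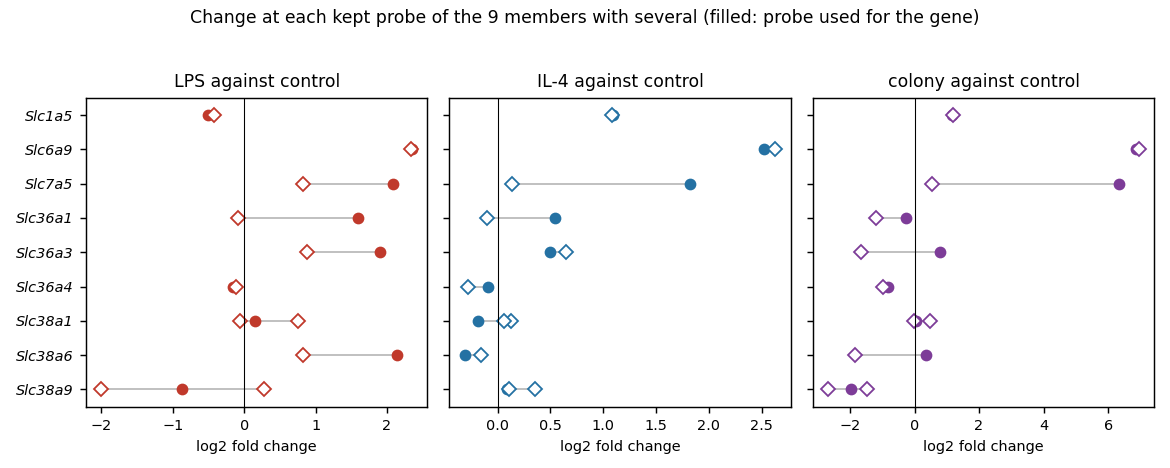
Log2 fold change against control (horizontal axes, own range per panel) at each kept probe of the 9 members with more than 1, in LPS macrophages, IL-4 macrophages and colony cells; filled circles are the probes that stand for the gene, open diamonds the others. Probes of Slc1a5, Slc6a9 and Slc36a4 lie close together, while those of Slc7a5 in colony cells lie 5.78 apart and those of Slc38a9 with LPS 2.28 apart.

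The remaining 19 members did not pass the filter. Of these, 15 were above background on no array: Slc1a1, Slc1a3, Slc6a2, Slc6a4, Slc6a5, Slc6a11, Slc6a14, Slc6a15, Slc6a17, Slc6a20b, Slc7a9, Slc7a10, Slc7a12, Slc38a4 and Slc38a8. The other 4 were above it on 1 array each. Slc3a1, the heavy chain that partners Slc7a9 in kidney, had 48.1 on 1 LPS array, and Slc6a3, Slc7a14 and Slc38a5 were near background. Levels below background give no order.

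Genes around the transporters moved in their own directions. Of 23 genes of the ATF4 amino acid response and of serine, proline and asparagine synthesis, 15 were higher and 2 lower with LPS, 12 higher and 3 lower with IL-4, and 19 higher and 3 lower in colony cells. Of all genes, 28.9% were higher and 25.8% lower with LPS, 9.87% and 9.18% with IL-4, and 24.7% and 46.7% in colony cells. Their median changes were 0.78, 0.39 and 3.51. With LPS the stress gene Nupr1 (4.18 ± 0.09), the folate enzyme Mthfd2 (3.62 ± 0.08), Chac1, which breaks down glutathione (3.61 ± 0.08), and the proline enzyme Pycr1 (2.98 ± 0.25) had the largest changes. With IL-4 these were Chac1 (3.51 ± 0.08), the serine synthesis enzymes Phgdh (2.98 ± 0.07) and Psat1 (2.62 ± 0.10), and asparagine synthetase, Asns (2.27 ± 0.09). In colony cells Chac1 (18259 and 17228, against 34.7 and 35.9 in control) rose 503-fold, the cysteine-forming enzyme Cth at least 137-fold, the lipoprotein receptor Vldlr 143-fold, with the wide error of 7.16 ± 1.27, and Phgdh 76.8-fold. The highest adjusted p of these was 0.0035.

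Of 20 cytosolic aminoacyl-tRNA synthetases, which load amino acids on transfer RNA, 17 were higher and 0 lower with LPS, 12 higher and 0 lower with IL-4, and 15 higher and 1 lower in colony cells, where 28.9%, 9.87% and 24.7% of all genes were higher. Median changes were 0.73, 0.39 and 1.13. The alanine enzyme Aars (1.80 ± 0.09), Cars (1.12 ± 0.07), Tars (1.04 ± 0.08) and Rars (0.88 ± 0.07) led with LPS, and Yars (0.99 ± 0.15), Cars (0.93 ± 0.07), Mars1 (0.92 ± 0.07) and Eprs (0.81 ± 0.08) with IL-4. Yars (3.08 ± 0.15), Aars (2.54 ± 0.09), Gars (2.16 ± 0.08) and Sars (1.93 ± 0.07) had the largest changes in colony cells. With quantile normalization 13 were higher and 2 lower with LPS, and 11 were higher with the authors' deposited table. With IL-4 the count higher was 7 without either IL-4 array and 8 with median centring.

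Among amino acid sensing genes of the mTORC1 pathway, more were lower than higher in each group. Of 26 tested, 4 were higher and 15 lower with LPS, 2 higher and 8 lower with IL-4, and 3 higher and 20 lower in colony cells, where 25.8%, 9.18% and 46.7% of all genes were lower. With IL-4 the count lower was 3 without IL-4 replicate 1 and 4 without IL-4 replicate 2 or with median centring, and with LPS the count higher was 0 with median centring and 1 or 2 on leaving out any 1 array other than control replicate 1. Median changes were -0.34, -0.14 and -0.86. The leucine sensor relative Sesn1 had 4137 and 4377 in LPS macrophages, 17561 and 18363 in IL-4 macrophages, 1376 and 1301 in colony cells, and 34027 and 30837 in control macrophages. It fell by 7.61-fold, 1.8-fold and 24.2-fold (adjusted p = 5.6e-06, 0.0022 and 7e-07). Its relative Sesn2, counted with the ATF4 genes instead, was higher with LPS (0.78 ± 0.11) and in colony cells (1.61 ± 0.11) and lower with IL-4 (-0.47 ± 0.11). These RNA counts give no direction of mTORC1 signalling. The arginine sensor Castor1 fell with LPS (-2.44 ± 0.12) and with IL-4 (81.7 and 77.1, against 158 and 159.6 in control, adjusted p = 0.0045), Rragb, a Rag GTPase, was at least 3.17-fold lower with LPS, and Flcn, which acts on the Rag GTPases, fell with LPS (-1.74 ± 0.09). Sesn3 (-1.04 ± 0.07) and Fnip2 (-0.57 ± 0.09) fell with IL-4. In colony cells Fnip2 (-2.27 ± 0.09), Rragd (-2.18 ± 0.12) and the lysosome regulator Tfeb (-2.08 ± 0.11) followed Sesn1.

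Enzymes that break down or convert amino acids had no common direction: of 24 tested among 27, 4 were higher and 9 lower with LPS, 3 and 3 with IL-4, and 11 and 9 in colony cells. The LPS count, 54.2% called, is close to the 54.7% of all genes; 9.87% of all genes were higher and 9.18% lower with IL-4, and 24.7% higher and 46.7% lower in colony cells. Glutamine synthetase, Glul, had 1532 and 1616 in LPS macrophages, 5559 and 5425 in IL-4 macrophages, 524 and 485 in colony cells, and 10558 and 11138 in control macrophages, and fell by 6.89-fold, 1.97-fold and 21.5-fold (adjusted p = 5.1e-06, 0.0011 and 6.4e-07). With LPS Prodh (-2.35 ± 0.10), Kmo (-1.49 ± 0.11) and Got1 (-1.34 ± 0.09) fell as well. The kynurenine pathway parted with IL-4: Kynu rose (2.21 ± 0.51, adjusted p = 0.036) and Kmo fell (-0.88 ± 0.11), and the glutathione enzyme Gclc rose (0.72 ± 0.11). Without either IL-4 array 0 of these enzymes were called higher with IL-4, so both rises lost their call. In colony cells the histidine enzyme Hal (5.12 ± 0.35) and the branched-chain transaminase Bcat1 (3.67 ± 0.83) rose, and Kynu was at least 2.87-fold lower.

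Of 12 other transporters tested among 14, mostly of amino acids and peptides, 3 were higher and 5 lower with LPS, 1 higher and 4 lower with IL-4, and 1 higher and 10 lower in colony cells, where 25.8%, 9.18% and 46.7% of all genes were lower. With IL-4 the count lower was 1 without either IL-4 array or with median centring. The lysosomal peptide and histidine carrier Slc15a3 rose with LPS (2.67 ± 0.11) and IL-4 (0.91 ± 0.11) and fell in colony cells (-2.05 ± 0.11). With LPS the peptide carrier Slc15a2 (-3.03 ± 0.33), the lysosomal cystine exporter Ctns (-1.74 ± 0.07) and the choline carrier Slc44a1 (-1.16 ± 0.08) fell. The aromatic amino acid carrier Slc16a10 (-0.81 ± 0.07), Slc15a4 (-0.66 ± 0.10) and Slc44a1 (-0.43 ± 0.08) fell with IL-4. In colony cells Slc16a10 fell 13.3-fold (-3.74 ± 0.07), the nucleoside carrier Slc29a3 by -2.61 ± 0.12 and Slc15a4 by -1.54 ± 0.10. These 3 comparisons share the control arrays.

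**Figure D4:**
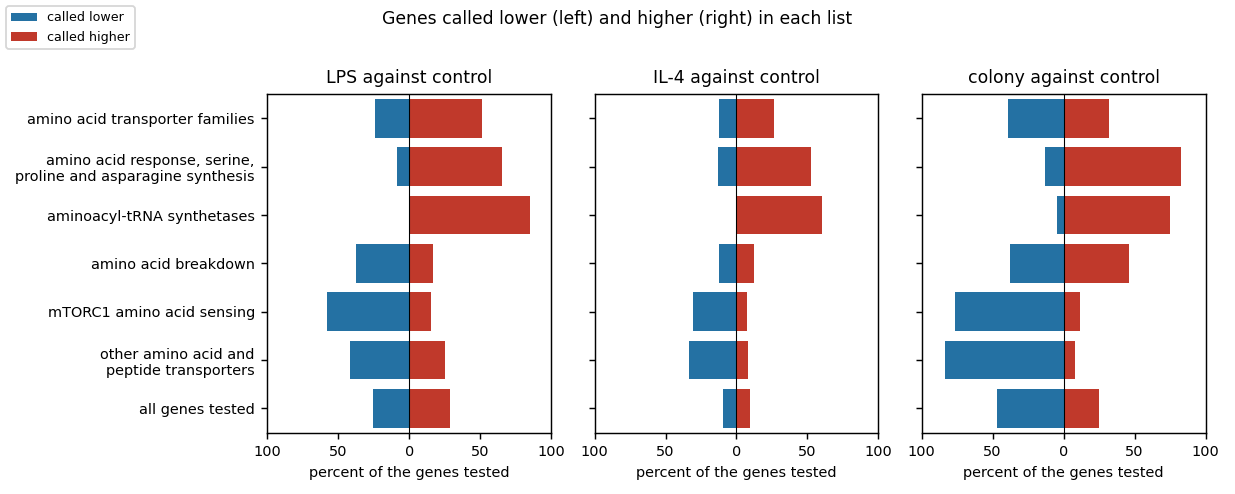
Percent of the tested genes called lower (left of 0) and higher (right of 0) against control in LPS macrophages, IL-4 macrophages and colony cells, for the transporter families (41 genes), 5 related gene lists and all 26504 genes tested. The synthetases lie almost wholly on the right in all 3 panels and the mTORC1 sensing genes have longer bars on the left than on the right; the transporter families have genes on both sides.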

How the data were processed

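Signals in intensity units were deposited per array and, per the file headers, come from Agilent Feature Extraction 10.7.3.1, background-subtracted and not scaled between arrays; columns of 0 or 1 flag each spot for detection over background, saturation, unevenness and outlying values. The value table deposited by the authors is on the log2 scale and was used as an alternative; its scaling is not given, and Partek 6.4 and RMA are named without a role in the submitters' processing notes. Uneven and outlying spots were left out, log2 signals were reduced by each array's 75th percentile, then spots were averaged per probe. Probes stayed in if both arrays of any 1 group were well above background (39411 of 55681), and the kept probe with the highest mean stood for its gene; 37 of 26504 genes lack a value on some array. limma 3.58.1 in R 4.3.3 fitted 4 group means over 8 arrays (4 residual and 1.57 prior degrees of freedom). The smallest two-sided p from exact permutation of 2 and 2 arrays is 0.333, so calls rest on the fitted variances. These are pooled over the 4 groups for each gene, which takes their spread as equal, and are shared across genes to a lesser part. Lower bounds set the brighter group against the higher of the dim group's own signal and the array's detection floor, the lowest signal among probes above background, under this background correction. All arrays lay on 1 slide and 1 scan. Probe positions are those of the files (mm9); without an mm9 annotation here, no exon or UTR is named.

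The members and lists were chosen with earlier results of these data known. Members may be named, except for 1 counted member that is not reported here; up to 8 called members each way per comparison with the largest change are given in full, and from each other list up to 4 called genes with the largest change. The fit was tested on simulated data. Alternatives were other background corrections, scalings, filters, probes and thresholds, the replicate number as a block, and leaving out each array. Array number limits the precision.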

Additional observations from a re-analysis of the deposited data

How the results depend on the processing

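Counts of called members kept within 1.5 times of the reported ones under most alternatives. Requiring a 2-fold change left 19 members for LPS against control, 7 for IL-4, 17 for colony cells, 16 for IL-4 against LPS and 18 for colony cells against IL-4, and an adjusted p under 0.01 left 9 for IL-4 against control. Leaving out 1 array gave 28 to 29 calls (LPS against control), 9 to 16 (IL-4 against control; 9 without IL-4 replicate 1, 10 without control replicate 2), 26 to 31 (colony cells against control), 24 to 28 (IL-4 against LPS), 25 to 31 (colony cells against IL-4) and 31 to 35 (colony cells against LPS). With the replicate number as a block the counts were 29, 14, 30, 27, 29 and 34. Over all genes, same-numbered arrays did not deviate together (r between -0.16 and 0.05). This cannot settle whether the numbers pair samples, because each group gives 1 such difference, which also holds technical spread. Of 93 changes named by the rule, 72 kept direction and call under each alternative run; of 1831 values, 81 missed the threshold in the same direction and 1 changed sign (Slc43a1, IL-4 against control, -0.14 with normexp background correction, adjusted p = 0.48; the gene is dim in both groups and the cause was not tested). The share of called members that were higher moved with the processing: 67.7% with LPS as reported, 59.3% with median centring, 57.1% with normexp and 56.5% in the deposited table, and 44.8% in colony cells as reported, 31.4% with normexp, 44.8% with median centring and 51.7% with quantile normalization. The all-gene median for LPS against control moved from 0.07 to between -0.15 and -0.08 under the 4 other scalings and background corrections. IL-4 calls for Slc6a13 and Slc7a4 were lost with median centring (adjusted p = 0.062 and 0.057). A slide block could not be run with 1 slide. Signals near background, as for Slc7a13, Slc36a2, Slc6a19 and Slc43a1, limit what can be read from the changes of dim members.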
